A study of Homo sapiens with 8 samples.

Results

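The effect described here is the part of the response to HOTAIR that 2 human breast epithelial cell lines had in common, MCF10A and MCF10 DCIS.COM (DCIS.COM). It was estimated over all 8 RNA-seq libraries of the series, 4 carrying HOTAIR against 4 carrying the empty vector, with the cell line as a block. All 13771 genes of the deposited table entered the fit, so that 1 log2 fold change per gene stood for both lines, and each line's own value was read beside it.

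MCF10A is a non-tumorigenic line, and DCIS.COM derives from the same lineage and forms lesions resembling ductal carcinoma in situ (DCIS) when grafted into mice. Each line had been transduced stably with a lentiviral pCDH vector, either empty (pCDH-empty) or carrying HOTAIR (pCDH-HOTAIR), and both vectors were followed by selection in 10 µg/ml puromycin. The 4 groups held 2 libraries each. MCF10A cells grew with EGF at 20 ng/mL, hydrocortisone, insulin and cholera toxin in addition to horse serum, and DCIS.COM cells grew with horse serum, so that line and medium cannot be told apart, while both vectors of a line shared the medium. The HOTAIR came from a vector and was set against an empty vector, not against a knockdown of the endogenous gene. The labels do not say whether a transduced line was a pool or a clone, or whether its 2 libraries came from separate cultures. The p-values therefore measure the spread between libraries, which may be technical. In the shared fit this spread also takes in any difference in effect between the lines. A gene that rose by unlike amounts in the lines thus gets a larger shared SE and p. A change made when the transduced lines were established cannot be told apart from an effect of HOTAIR.

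HOTAIR is a long non-coding RNA transcribed from the HOXC cluster that binds the histone-modifying complexes PRC2 and LSD1. Hypoxia-inducible factor (HIF) is a transcription factor whose alpha subunit is marked for destruction by the oxygen-dependent prolyl hydroxylases EGLN1, EGLN2 and EGLN3. When it is spared, it switches on genes for glucose breakdown, pH control, collagen processing and vessel growth, and NDRG1 is among the genes known to respond to it.

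Values are CPM, the reads of a gene scaled to library size, or log2 fold changes of HOTAIR over empty vector. A gene counted as called when its adjusted p (Benjamini-Hochberg) was under 0.05. Recovered depth ran from 19306864 to 34884841 reads per library, with the 2 MCF10A pCDH-HOTAIR libraries the least deep. DCIS.COM pCDH-empty 1 stood apart from the other libraries. The signal recognition particle RNA genes RN7SL1 and RN7SL2, which are close copies of each other, held 18.9% of its reads and 11.1% to 14.95% elsewhere, and limma's library weights gave it 0.101 against 0.733 to 2.25 for the other 7. Results that rest on it are given with and without it. Summed basal epithelial markers stood at 16390 to 18410 CPM in MCF10A and 3820 to 4301 CPM in DCIS.COM. Of the fibroblast markers only COL1A1, COL1A2 and FAP were in the table. Their sum was 88.6 and 99.4 CPM against 107 and 121 CPM in MCF10A (empty vector against HOTAIR) and 1.63 and 2.31 against 2.93 and 2.38 CPM in DCIS.COM, while DCN, LUM and PDGFRA were not in it. The part of this shift in the results below was not tested.

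HOTAIR itself followed the labels in every library. It had 1.44 and 1.503 CPM in the MCF10A empty-vector libraries against 238 and 241.5 with HOTAIR, and 3.96 and 5.22 CPM in the DCIS.COM empty-vector libraries against 202 and 190.3 with HOTAIR. These values rest on 40 to 140 reads with the empty vector and 4614 to 7166 with HOTAIR. The shared log2 fold change was 6.34 ± 0.33 (SE; adjusted p = 0.00019, limma), an 81.2-fold rise. The rise was 7.28 in MCF10A and 5.41 in DCIS.COM on the log2 scale, and with the empty vector there were 45 and 40 reads in MCF10A and 119 and 140 in DCIS.COM. The gene lies at chr12:54356092-54368740, minus strand (GRCh37), with HOXC11 on the opposite strand. The use of strand in counting is not given in the sources used here, and HOXC11 showed no such rise, with a shared log2 fold change of -0.022 ± 0.14. Reads of the endogenous gene and of the vector cannot be told apart.

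NDRG1, a stress-responsive cytoplasmic protein, was the only other gene that passed both the test and a fold change of 1.5 over both lines. It measured 160.4 and 164.5 against 250.5 and 248 CPM in MCF10A, and 36.9 and 35.2 against 56.5 and 53.97 CPM in DCIS.COM, empty vector against HOTAIR. In each line both HOTAIR libraries lay above both empty-vector libraries, and the lines did not overlap with each other, since MCF10A held several times more NDRG1 at either vector. The gene lies at chr8:134249418-134314265, minus strand (GRCh37). Its shared log2 fold change was 0.62 ± 0.044 (SE), 1.53-fold, with an adjusted p of 0.0016. The 2 lines gave nearly the same size, 0.62 in MCF10A and 0.61 in DCIS.COM, and the 95% interval of their difference was -0.20 to 0.20. NDRG1 stayed past the threshold under every alternative tried, at adjusted p-values of 3.1e-05 to 0.041.

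PLAT, which encodes tissue plasminogen activator, the protease that turns plasminogen into plasmin, also passed the test but at a smaller fold. It measured 42.05 and 41.6 against 58.96 and 58.1 CPM in MCF10A, and 152 and 131 against 210.4 and 204 CPM in DCIS.COM, empty vector against HOTAIR. The groups did not overlap in either line. The shared log2 fold change was 0.52 ± 0.056 (SE), 1.43-fold, at an adjusted p of 0.032, with 0.48 in MCF10A and 0.56 in DCIS.COM. Without DCIS.COM pCDH-empty 1 the DCIS.COM value was 0.66. The gene lies at chr8:42032236-42065227, minus strand (GRCh37). The call did not hold with median centring (adjusted p = 0.070), with length correction (0.080), without the variance trend (0.11), or without any one of the MCF10A or DCIS.COM pCDH-HOTAIR libraries or the MCF10A empty-vector libraries.

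**Figure D1:**
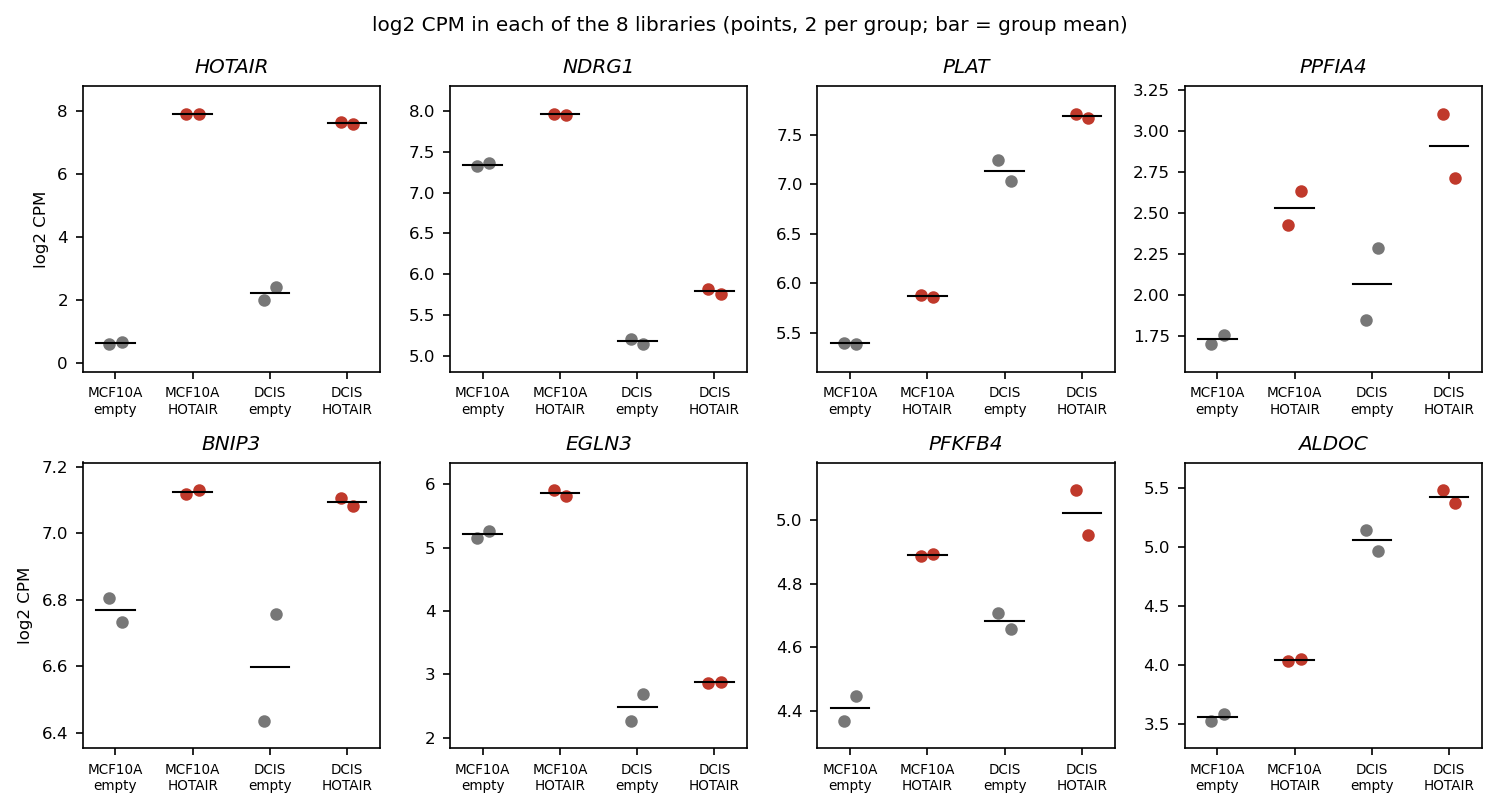
log2 CPM (vertical axes) of HOTAIR, NDRG1, PLAT and 5 further genes in the 4 groups, with grey points for empty-vector libraries, red points for HOTAIR libraries and a bar for each group mean (n = 2). In all 8 panels both HOTAIR libraries lie above both empty-vector libraries within each line, and the 2 DCIS.COM empty-vector libraries lie apart for BNIP3, EGLN3 and PPFIA4.

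Over all genes the test thus called 2 genes with a fold change of at least 1.5 (0.0145%) and 3 at any fold (0.0218%), all higher with HOTAIR. At an unadjusted p under 0.05 there were 762 genes higher (5.53%) and 658 lower (4.78%), or 10.3% in either direction. Of the 13771 genes, 838 (6.09%) were higher in both lines with no overlap between HOTAIR and empty-vector libraries in either, and 837 (6.08%) were lower in both in the same way. The groups also did not overlap, but on opposite sides, for 1509 genes (11%). Correction for GC content changed the same-side counts to 763 higher of 2104, and correction for gene length to 659 higher of 1917.

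Across the table as a whole the values of the 2 lines were close to unrelated. The mean moved the same way in both lines for 48.51% of the genes and opposite ways for 50.6%, and the log2 fold changes of the lines had a Pearson r of 0.016 and a Spearman rho of -0.013 across 13770 genes (HOTAIR left out), which are not independent replicates. Without DCIS.COM pCDH-empty 1 these values were 54.79%, 0.079 and 0.12.

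**Figure D2:**
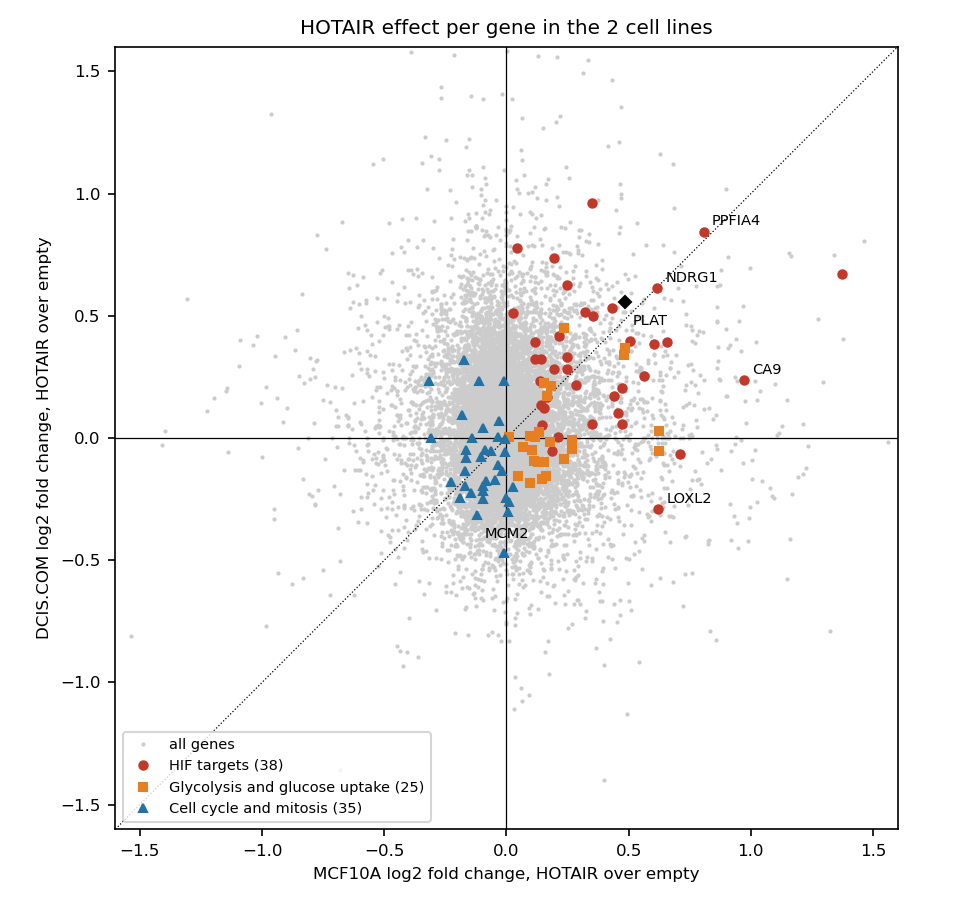
log2 fold change of HOTAIR over empty vector in MCF10A (horizontal) and DCIS.COM (vertical) for each gene, with HIF targets in red, glycolysis genes in orange, cell cycle genes in blue and the dotted line marking equal effects. All genes form a cloud with no slope (11 genes, HOTAIR included, lie outside the axes), whereas 35 of the 38 HIF targets lie in the upper right, where both values are above 0, and 22 of the 35 cell cycle genes in the lower left, where both are below 0.

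Of the gene lists with at least 10 members in the table, HIF targets had the largest share of members on the same side in both lines. All 38 listed genes were in the table, and all 38 had a shared log2 fold change above 0, as 52.4% of all genes did. Their means were higher with HOTAIR in both lines for 35 members against 24.3% of all genes. For 28 of them neither line showed any overlap between HOTAIR and empty-vector libraries, against 6.09% of all genes, and 31 had an unadjusted p under 0.05 in the higher direction, against 5.53%. NDRG1 was the only member past the adjusted threshold, so the other members are given as values and not as calls. The list median was 0.30 on the log2 scale over both lines, 0.30 in MCF10A and 0.30 in DCIS.COM, while that of all genes was 0.0088. The study names 10 of the members as changed in these samples. The 28 others, which are not independent of these samples either since the list was set with results known, gave a median of 0.27, with 21 not overlapping in either line and 23 with an unadjusted p under 0.05.

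DCIS.COM pCDH-empty 1 was lower than its partner for many of these genes. Without it, 31 members had no overlap in either line, against 10.9% of all genes under the same count, 34 were higher in DCIS.COM, and the DCIS.COM median was 0.18. The smaller DCIS.COM effect without that library was seen for BNIP3 (0.50 with it, 0.34 without), EGLN3 (0.39 and 0.19), EGLN1 (0.28 and 0.11) and LOX (0.40 and 0.16), but not for NDRG1 (0.61 and 0.65). Over both lines BNIP3 (adjusted p = 0.0055, limma), ADM (0.027), ITGA5 (0.0055) and EGLN3 (0.048) passed the threshold with library weights. None of these genes passed it in the main fit or under any other alternative that kept all libraries.

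Among the members with the smallest p, BNIP3 and FAM162A encode mitochondrial proteins, BNIP3 being a receptor for the removal of mitochondria. BNIP3 measured 112 and 106 against 139 and 139.9 CPM in MCF10A, and 86.6 and 108 against 138 and 135.5 CPM in DCIS.COM, empty vector against HOTAIR, with a shared log2 fold change of 0.43 ± 0.072 (SE; adjusted p = 0.18, limma). All 4 HOTAIR libraries stood near a common level, above all 4 empty-vector libraries. FAM162A measured 47.2 and 50.1 against 60.2 and 58.4 CPM in MCF10A, and 77.4 and 80.7 against 93.9 and 89.9 CPM in DCIS.COM, with 0.25 ± 0.048 (adjusted p = 0.27).

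PPFIA4 encodes a liprin alpha, a scaffold protein. It measured 3.175 and 3.31 against 5.32 and 6.155 CPM in MCF10A, and 3.53 and 4.81 against 8.55 and 6.497 CPM in DCIS.COM. Its shared log2 fold change was 0.83 ± 0.13, with 0.81 in MCF10A and 0.84 in DCIS.COM. The DCIS.COM value was 0.62 without DCIS.COM pCDH-empty 1, so the near-equal values rest on that library. The groups did not overlap in either line, but the libraries of a group lay far apart in DCIS.COM, and the adjusted p was 0.14.

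The oxygen sensors EGLN3 and EGLN1, which are themselves HIF targets, were higher in both lines without overlap. EGLN3 measured 35.4 and 38.6 against 60.04 and 56.55 CPM in MCF10A, and 4.76 and 6.38 against 7.202 and 7.33 CPM in DCIS.COM, with a shared log2 fold change of 0.53 ± 0.10 (adjusted p = 0.27). EGLN1, which was abundant in both lines, measured 103.5 and 105 against 121 and 118 CPM in MCF10A, and 94.8 and 121 against 129.5 and 131 CPM in DCIS.COM, with 0.24 ± 0.073 (adjusted p = 0.39). The HIF subunits did not show such values. HIF1A measured 786 and 791 against 858 and 897 CPM in MCF10A, and 780.5 and 838 against 792 and 811 CPM in DCIS.COM, with 0.071 ± 0.056, and EPAS1, the other main alpha subunit, lay on opposite sides in the lines (0.19 in MCF10A, -0.28 in DCIS.COM). Of the 12 HIF subunits and regulators in the table, 3 were higher in both lines without overlap (all genes, 6.09%), EGLN3, EGLN1 and CITED2, a competitor of HIF for its coactivators. EGLN3 and EGLN1 are also among the 28 HIF targets counted above. CITED2 measured 23.35 and 22.81 against 29.58 and 23.37 CPM in MCF10A, so its groups were only just apart there.

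Further members are given with their values in the lines side by side. They are a selection and not the next in order of p. Apart from KDM3A, they act outside the cell or at its surface. CA9, the membrane carbonic anhydrase of hypoxic cells, measured 32.3 and 34.5 against 66.8 and 64.00 CPM in MCF10A, and 39.85 and 38.5 against 46.4 and 45.9 CPM in DCIS.COM, with no overlap in either line but 0.97 in MCF10A against 0.24 in DCIS.COM on the log2 scale. Its shared fold change was 0.60 ± 0.13 (adjusted p = 0.32), and the difference between the lines did not pass the test (adjusted p = 0.086, with 0.00037 to 0.67 over the alternatives). Over both lines CA9 passed the threshold with 4 group means (adjusted p = 0.0069, limma) and with library weights (0.031), and under no other alternative. VEGFA, the vessel growth factor, was higher by 0.45 and 0.10, and ADM, a vasodilating peptide, by 0.56 and 0.25, in MCF10A and DCIS.COM. LOX, which crosslinks collagen, was higher by 0.51 and 0.40. KDM3A, a histone demethylase, gave 0.25 and 0.28. VEGFA, ADM and KDM3A were picked after their values were seen. Without overlap on opposite sides there were 2 members (all genes, 11%), ANGPTL4, an angiopoietin-like inhibitor of lipoprotein lipase (0.71 in MCF10A, -0.065 in DCIS.COM), and LOXL2, a collagen crosslinking enzyme (0.62 and -0.29). Without DCIS.COM pCDH-empty 1 their DCIS.COM values were -0.0087 and -0.15.

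**Figure D3:**
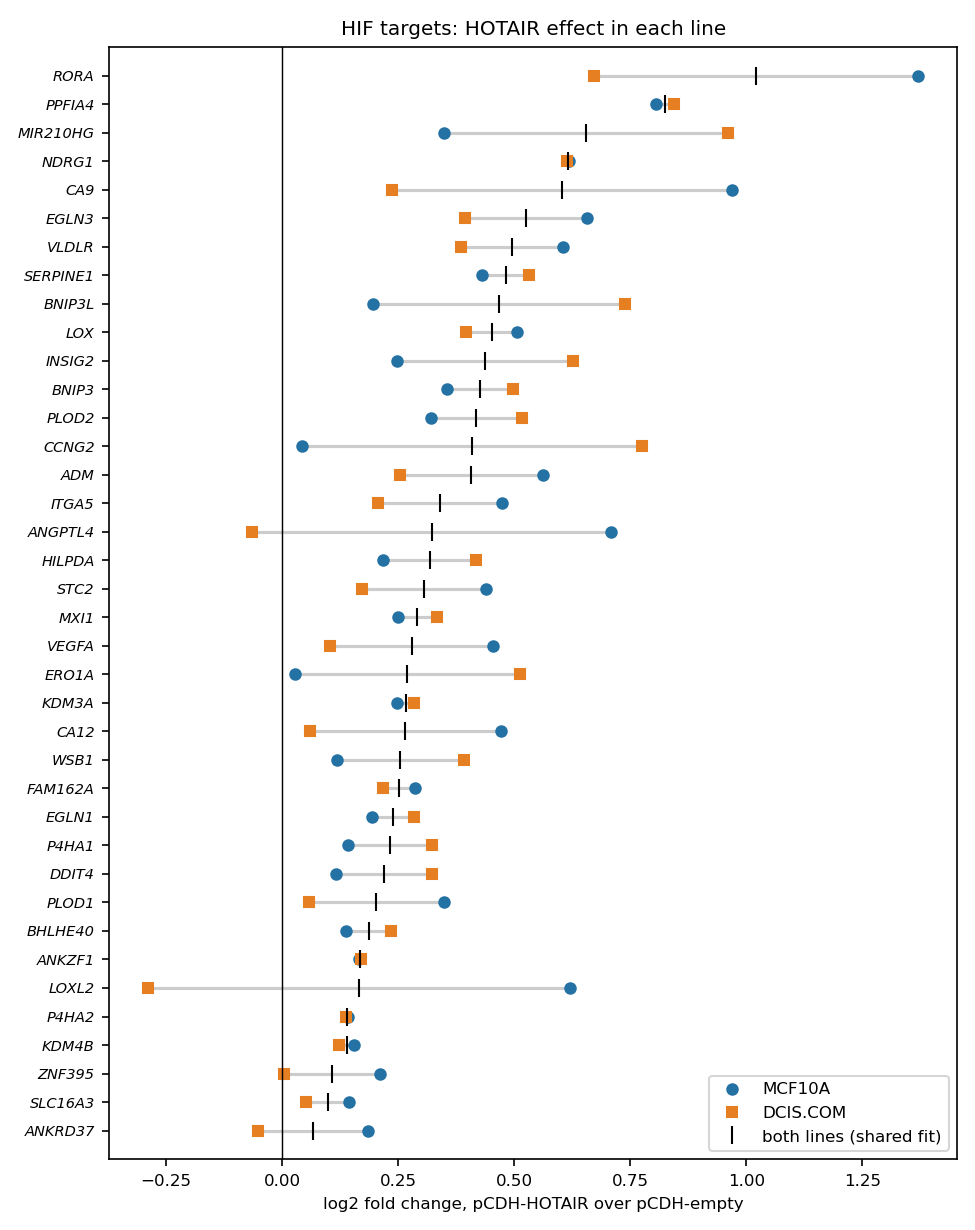
log2 fold change of HOTAIR over empty vector (horizontal axis) for the 38 HIF targets, with circles for MCF10A, squares for DCIS.COM and ticks for the shared fit, ordered by the shared value. The shared value is above 0 for all 38 members. With all libraries the 2 lines nearly coincide for NDRG1 and PPFIA4, and ANGPTL4, LOXL2 and ANKRD37 are the members below 0 in DCIS.COM. Without DCIS.COM pCDH-empty 1 the DCIS.COM value of PPFIA4 was 0.62.

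HIF binds the core letters ACGTG and GCGTG, and the start regions of the members with the smallest p after NDRG1 and with a stored promoter are shown to let these letters be seen. Each window runs from 250 bases before to 50 bases after the RefSeq start (GRCh38.p14), 5′ to 3′ on the strand of the gene, with matches to ACGTG or GCGTG on either strand in capitals, where the overlap of both in CACGTG makes one longer run.
PPFIA4 (chr1:203026241-203026540, plus strand): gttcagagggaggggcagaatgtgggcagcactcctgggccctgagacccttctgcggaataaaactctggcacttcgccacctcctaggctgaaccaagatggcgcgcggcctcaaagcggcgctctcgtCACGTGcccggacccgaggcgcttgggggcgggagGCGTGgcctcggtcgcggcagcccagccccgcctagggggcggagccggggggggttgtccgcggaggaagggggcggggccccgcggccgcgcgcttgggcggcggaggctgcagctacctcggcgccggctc
BNIP3 (chr10:131981874-131982173, minus strand): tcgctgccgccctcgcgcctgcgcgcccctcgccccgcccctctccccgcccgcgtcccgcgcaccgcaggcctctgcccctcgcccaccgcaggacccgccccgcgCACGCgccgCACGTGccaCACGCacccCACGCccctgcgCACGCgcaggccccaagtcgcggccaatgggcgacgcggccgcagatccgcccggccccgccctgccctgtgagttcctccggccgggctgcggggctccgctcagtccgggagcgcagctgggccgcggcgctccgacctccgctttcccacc
FAM162A (chr3:122383932-122384231, plus strand): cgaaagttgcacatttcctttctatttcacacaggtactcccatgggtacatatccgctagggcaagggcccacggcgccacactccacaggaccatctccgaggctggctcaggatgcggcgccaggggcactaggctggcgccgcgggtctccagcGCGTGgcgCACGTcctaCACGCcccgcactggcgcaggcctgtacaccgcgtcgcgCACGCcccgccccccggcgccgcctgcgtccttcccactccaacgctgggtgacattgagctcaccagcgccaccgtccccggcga
EGLN3 (chr14:33951025-33951324, minus strand): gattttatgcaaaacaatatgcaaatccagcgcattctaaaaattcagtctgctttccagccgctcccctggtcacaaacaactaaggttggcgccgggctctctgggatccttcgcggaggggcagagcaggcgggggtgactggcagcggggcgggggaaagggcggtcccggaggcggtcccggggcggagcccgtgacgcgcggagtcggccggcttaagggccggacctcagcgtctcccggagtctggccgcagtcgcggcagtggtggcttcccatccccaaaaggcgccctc

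The windows held 3 matches for PPFIA4, 6 for BNIP3, 4 for FAM162A and 0 for EGLN3. Of the 38 HIF targets, 30 had a stored promoter, and 25 of these (83.3%) held at least 1 match. The same was true of 62.9% of the 10679 promoters of table genes, 72.0% of the 25 promoters of glycolysis genes and 70.4% of the 27 of cell cycle genes. These are matches of letters and not measured binding, and the windows are read from the reference and not from these cells.

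Glycolysis and glucose uptake genes are given by the same counts. Of 25 members in the table, 6 were higher in both lines without overlap (all genes, 6.09%), and 7 had an unadjusted p under 0.05 in the higher direction (all genes, 5.53%), and 14 had means on opposite sides (all genes, 50.6%). The median was 0.0761 over both lines, 0.15 in MCF10A and -0.0152 in DCIS.COM. Without DCIS.COM pCDH-empty 1 the DCIS.COM median was 0.0792, with 18 of 25 members higher, against 11 of 25 with it. No member passed the adjusted threshold.

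The 6 members were PFKFB4, ALDOC, PDK1, GBE1, PGK1 and LDHA, of which PGK1 and LDHA were named after their values were seen. PFKFB4, which sets the level of an activator of phosphofructokinase, measured 20.6 and 21.7 against 29.5 and 29.6 CPM in MCF10A, and 26.04 and 25.15 against 34.1 and 30.9 CPM in DCIS.COM, with a shared log2 fold change of 0.41 ± 0.061 (adjusted p = 0.14). ALDOC, an aldolase, measured 11.5 and 11.95 against 16.3 and 16.6 CPM in MCF10A, and 35.4 and 31.3 against 44.7 and 41.4 CPM in DCIS.COM, with 0.43 ± 0.066 (adjusted p = 0.14). Their replicate libraries lay close together, and both passed the threshold without DCIS.COM pCDH-empty 1 (adjusted p = 0.0196 for PFKFB4 and 0.0088 for ALDOC) and with correction for GC content (0.047 and 0.033), with ranges of 0.017 to 0.59 and 0.0083 to 0.64 over all alternatives.

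PDK1, the kinase that shuts pyruvate out of the mitochondrial cycle, measured 44.5 and 46.6 against 52.1 and 55.4 CPM in MCF10A, and 38.05 and 45.85 against 57.8 and 56.2 CPM in DCIS.COM, with 0.34 ± 0.075 (adjusted p = 0.31). GBE1, the glycogen branching enzyme, gave 0.19 ± 0.049. PGK1, a middle step of glycolysis, and LDHA, which forms lactate, gave 0.20 ± 0.052 and 0.17 ± 0.057. Among the other members, GAPDH was 0.15 in MCF10A and -0.10 in DCIS.COM, and PFKFB3, the enzyme of the same family as PFKFB4, was 0.62 and 0.03. In DCIS.COM GAPDH measured 9132 and 7598 against 7811 and 7764 CPM, empty vector against HOTAIR, so its lower value there rests on DCIS.COM pCDH-empty 1. Without DCIS.COM pCDH-empty 1 the DCIS.COM values of PDK1, GBE1, PGK1 and PFKFB3 were 0.31, 0.15, 0.14 and 0.085. With it they were 0.45, 0.23, 0.21 and 0.03. That library was the highest of DCIS.COM for GAPDH, PKM, GPI and ALDOA, and without it 16 members were higher in both lines without overlap (all genes, 10.9%), where the count with it was 6.

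**Figure D4:**
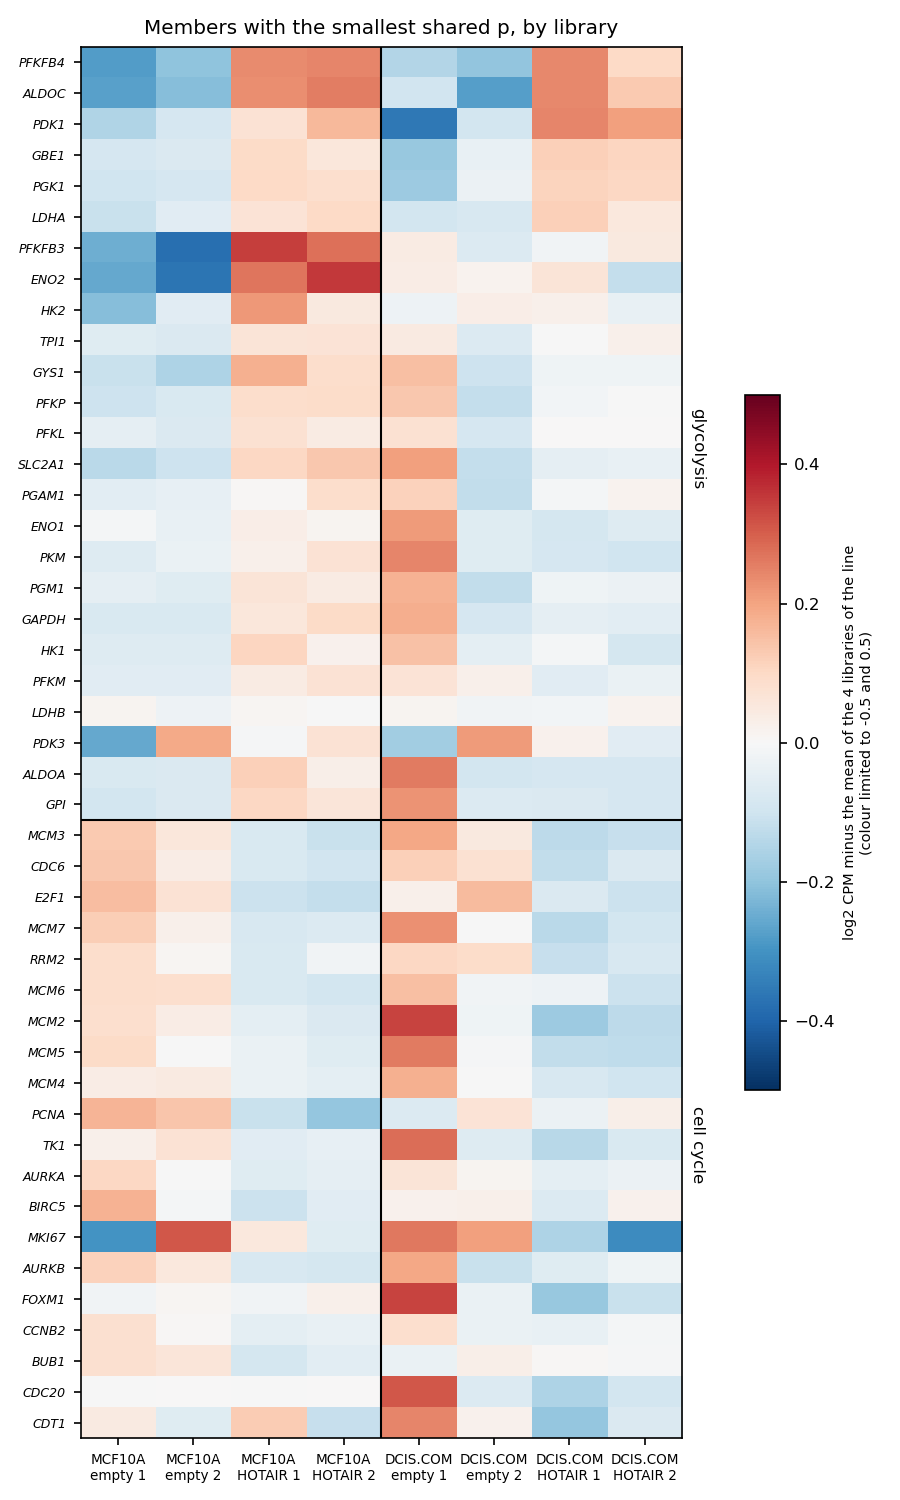
log2 CPM of each gene minus the mean of the 4 libraries of its line (colour, limited to -0.5 and 0.5) for the 25 glycolysis genes and for the 20 cell cycle genes with the smallest shared p, with a column per library. In the 6 top glycolysis rows and most of the cell cycle rows HOTAIR and empty-vector columns have opposite colours in both lines, and DCIS.COM empty 1 is the most extreme column of its line in many rows.

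Cell cycle and mitosis genes had slightly lower values with HOTAIR in both lines. Means were lower in both lines for 22 of 35 members (all genes, 24.3%), 11 were lower without overlap in either line (all genes, 6.08%), none lay without overlap on opposite sides (all genes, 11%), and 9 had an unadjusted p under 0.05 in the lower direction (all genes, 4.78%). The 11 included MCM2 to MCM7, all 6 subunits of the replicative helicase, together with CDC6, E2F1, RRM2, TK1 and AURKA, which were named by that count and in part after their values were seen. The list median was -0.11 and no member passed the adjusted threshold. MCM3 measured 182 and 173 against 158 and 154 CPM in MCF10A, and 254 and 229 against 203 and 205 CPM in DCIS.COM, with -0.22 ± 0.049 (adjusted p = 0.33). CDC6, which loads the helicase, gave -0.18 ± 0.046, E2F1, the transcription factor of entry into DNA synthesis, -0.20 ± 0.056, and MCM7 -0.19 ± 0.059. The DCIS.COM value of MCM7 was -0.23 with DCIS.COM pCDH-empty 1 and -0.11 without it. Without DCIS.COM pCDH-empty 1, 16 members were lower in both lines without overlap (all genes, 11.4%).

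Sterol and fatty acid synthesis genes had lower values mainly in MCF10A, where the mean of 1 of 23 was higher, against 12 of 23 in DCIS.COM. Of 23, 6 were lower without overlap in both lines (all genes, 6.08%), 3 lay on opposite sides without overlap (all genes, 11%) and 7 had an unadjusted p under 0.05 in the lower direction (all genes, 4.78%), with a median of -0.10. DHCR7, the last enzyme of cholesterol synthesis, measured 40.7 and 42.5 against 33.5 and 34.3 CPM in MCF10A, and 203 and 164 against 149 and 154 CPM in DCIS.COM, empty vector against HOTAIR, with a shared log2 fold change of -0.28 ± 0.068 (adjusted p = 0.36). FASN, the fatty acid synthase, gave -0.29 ± 0.085, and SCD, which desaturates fatty acids, -0.29 ± 0.091. In MCF10A and DCIS.COM, FASN gave -0.24 and -0.34, and SCD gave -0.50 and -0.07. The medians were -0.23 in MCF10A and 0.0213 in DCIS.COM. Without DCIS.COM pCDH-empty 1 the DCIS.COM median was 0.00028, with 13 of 23 members higher. The DCIS.COM value of DHCR7 was -0.27 with DCIS.COM pCDH-empty 1 and -0.11 without it.

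The axis of lysophosphatidic acid, a lipid that signals through G protein-coupled receptors, had members with higher values among its enzymes, receptors and G proteins. Of 22 members, 7 were higher in both lines without overlap (all genes, 6.09%), 2 lay on opposite sides without overlap (all genes, 11%) and 5 had an unadjusted p under 0.05 in the higher direction (all genes, 5.53%). ENPP2, the secreted enzyme (autotaxin) that makes the lipid, measured 0.2245 and 0.301 against 1.81 and 1.201 CPM in MCF10A, and 0.0665 and 0.1865 against 0.506 and 0.5365 CPM in DCIS.COM, with a shared log2 fold change of 1.93 ± 0.26 (adjusted p = 0.13). The receptor gene LPAR1 measured 0.609 and 0.376 against 1.08 and 1.25 CPM in MCF10A, and 0.0333 and 0.0373 against 0.0563 and 0.179 CPM in DCIS.COM, with 0.95 ± 0.27 (adjusted p = 0.39). The groups did not overlap in either line for either gene. These levels are low, 2 to 35 reads per library for ENPP2 and 1 to 25 for LPAR1, so that their counting error is large. With a pseudocount of 1 CPM the shared values of ENPP2 and LPAR1 were 0.71 and 0.32. Over the alternatives that kept all libraries they ran from 0.71 to 2.43 and from 0.32 to 1.21. The DCIS.COM value of ENPP2 was 1.65 with DCIS.COM pCDH-empty 1 and 1.20 without it. Of the alternatives that kept all libraries, ENPP2 passed the threshold only with library weights (adjusted p = 0.017, limma).

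Downstream, GNG2, a gamma subunit of G proteins, measured 4.59 and 4.55 against 8.83 and 9.46 CPM in MCF10A, and 0.0333 and 0.149 against 0.366 and 0.447 CPM in DCIS.COM, with 1.32 ± 0.25 (adjusted p = 0.25), and only 1 to 15 reads stood behind its DCIS.COM values. Its shared value was 0.62 with a pseudocount of 1 CPM and 1.04 without DCIS.COM pCDH-empty 1. Among the alternatives that kept all libraries, GNG2 passed the threshold only with library weights (adjusted p = 0.028, limma). GNAI2, an abundant inhibitory alpha subunit, measured 208 and 219 against 232 and 247 CPM in MCF10A, and 111 and 108 against 125 and 124 CPM in DCIS.COM, with 0.17 ± 0.045 (adjusted p = 0.36). The remaining non-overlapping members were GNAI1, LPAR6 and PLPP1. ENPP2, GNG2 and PPFIA4 are genes that the study names for these samples, and their values are no independent support.

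Matrix proteases and their inhibitors had 8 of 27 members higher in both lines without overlap (all genes, 6.09%), 1 lower, MMP15, and 6 on opposite sides (all genes, 11%), with PLAT the only call. The membrane protease MMP14 measured 141 and 145 against 161.5 and 167 CPM in MCF10A, and 39.4 and 43.2 against 65.35 and 62.1 CPM in DCIS.COM. Its shared log2 fold change was 0.41 ± 0.087 (adjusted p = 0.28). It passed the threshold with 4 group means (adjusted p = 0.046, limma) and under no other alternative. MMP2, a gelatinase that MMP14 activates, measured 19.6 and 26.35 against 27.7 and 29.2 CPM in MCF10A, and 5.59 and 5.82 against 9.68 and 8.76 CPM in DCIS.COM, with 0.50 ± 0.11 (adjusted p = 0.33), and in both the larger value was that of DCIS.COM. CTSB, a lysosomal protease, gave 0.23 ± 0.05, with 0.23 and 0.23 in the 2 lines. Its DCIS.COM value was 0.27 without DCIS.COM pCDH-empty 1. PLAU, the other plasminogen activator, gave -0.023 in MCF10A, where its libraries overlapped, and 0.60 in DCIS.COM, where they did not.

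Targets of NF-kappaB, cytokines and acute phase genes had 8 of 24 members higher in both lines without overlap (all genes, 6.09%), 4 on opposite sides (all genes, 11%) and 10 with an unadjusted p under 0.05 in the higher direction (all genes, 5.53%), the near-identical SAA1 and SAA2 among the 8, with a median of 0.19 and no call. ICAM1, a leukocyte adhesion receptor, gave 0.28 ± 0.077 (0.37 in MCF10A, 0.18 in DCIS.COM), and IL1A, an alarm cytokine, 0.33 ± 0.095 (0.51 and 0.16). CXCL8 and CXCL3, both neutrophil attractants, gave 0.33 ± 0.095 and 0.35 ± 0.10, the latter on 0.399 to 0.566 CPM in DCIS.COM. In MCF10A and DCIS.COM, CXCL8 gave 0.14 and 0.51, and CXCL3 gave 0.28 and 0.42.

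In the NDRG family, NDRG2 stood beside NDRG1 with 0.2245 and 0.188 against 0.465 and 0.4003 CPM in MCF10A, and 15.96 and 17.3 against 25.04 and 21.3 CPM in DCIS.COM and a shared log2 fold change of 0.67 ± 0.13 (adjusted p = 0.27), although its MCF10A values are low. NDRG3 did not follow, at -0.07 ± 0.056. MYC, a repressor of NDRG1, lay on opposite sides without overlap, 0.14 in MCF10A and -0.37 in DCIS.COM. Among the HOXC genes beside HOTAIR, none of the 5 in the table had a shared value beyond -0.16 ± 0.13 (HOXC8), and no HOXD gene was in the table.

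For many members of other groups the libraries lay on opposite sides in the lines. Interferon-stimulated genes had 16 of 36 members without overlap on opposite sides (all genes, 11%), with medians of -0.36 in MCF10A and 0.13 in DCIS.COM, and mesenchymal genes had 12 of 29, with 0.39 and -0.14. NRF2 targets, which defend against oxidants, had 9 of 20, with 0.0742 and -0.35. A further 5 of the 20 NRF2 targets were lower in both lines without overlap (all genes, 6.08%). No NRF2 target was higher in both in that way, and the median of the list over both lines was -0.12. Without DCIS.COM pCDH-empty 1 the DCIS.COM medians of the interferon, mesenchymal and NRF2 lists were 0.15, -0.025 and -0.38. Over all genes the test of the difference between the lines called 6 genes (0.0436%).

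**Figure D5:**
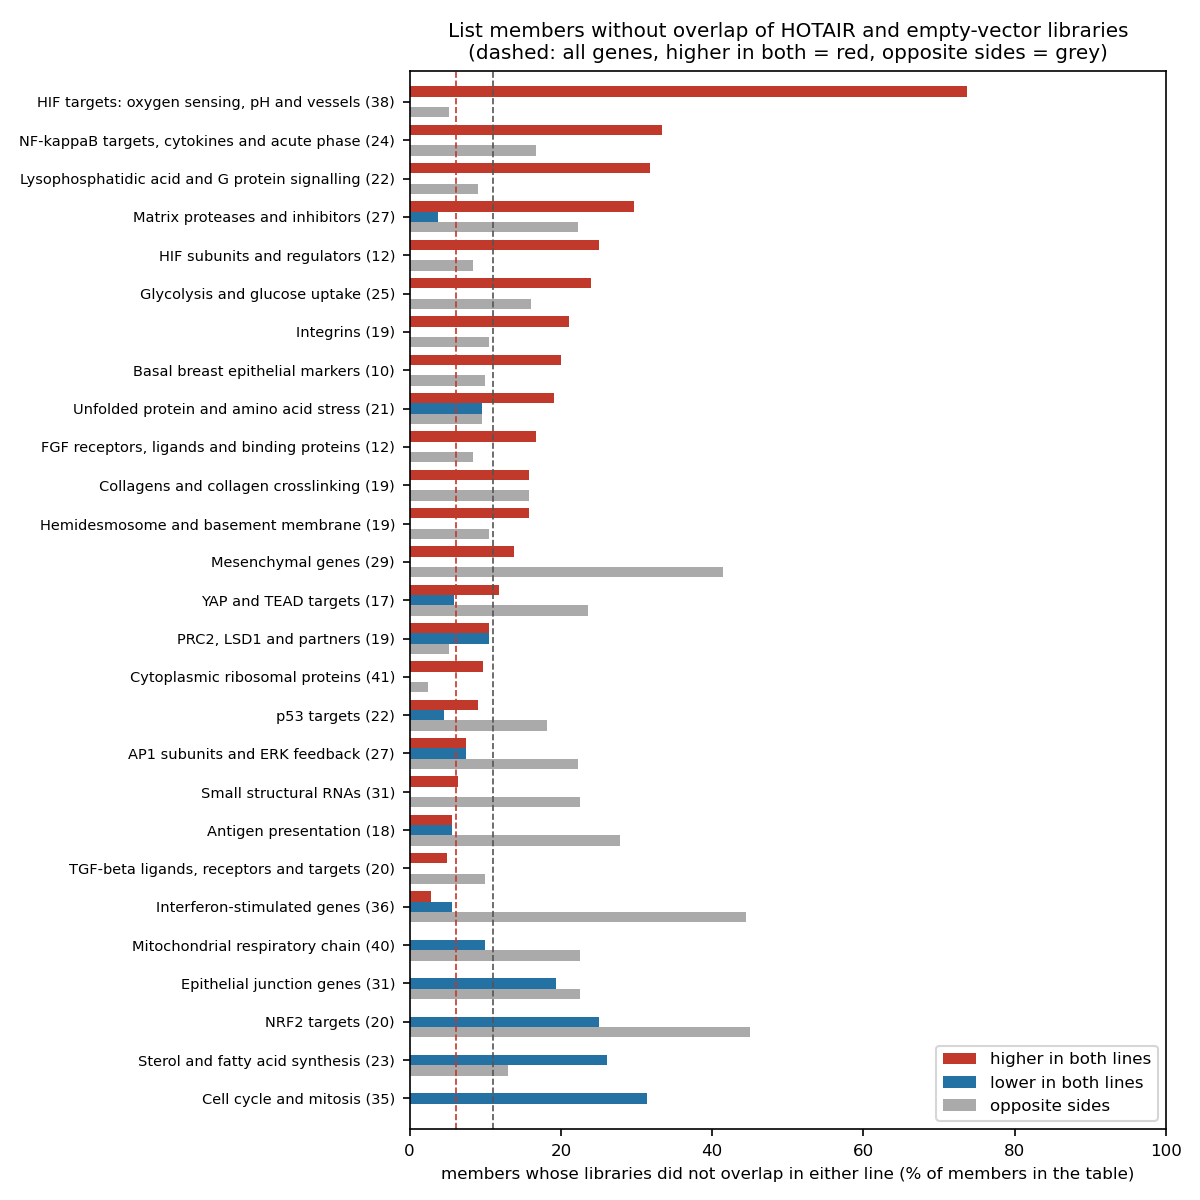
Share of each list's members in the table (number in brackets) whose HOTAIR and empty-vector libraries did not overlap in both lines, higher in both (red), lower in both (blue) or on opposite sides (grey), for the lists with at least 10 members. The red bar of the HIF targets is 28 of 38 members against 6.09% of all genes (red dashed line), cell cycle genes have only a blue bar, and interferon, mesenchymal and NRF2 genes have their longest bar on opposite sides (all genes 11%, grey dashed line).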

How the data were processed

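RNA-seq libraries of MCF10A and DCIS.COM cells with pCDH-HOTAIR or pCDH-empty were analysed (n = 2 per group). Per the labels and the methods of the study, ScriptSeq paired-end libraries were aligned with Rsubread (build hg19). The authors used featureCounts with the UCSC gene annotation for counting, and edgeR for normalization. Versions, strand setting and prior are not given in the sources used here. The authors deposited log2 CPM for 13771 genes, 343 of them without a symbol. The deposited values step by whole reads in 100% of cases (tolerance 0.05 reads) from a prior of 0.0717 CPM, and reads and CPM given here were recovered from these steps. No sample column was left unused.

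Fits used limma 3.58.1 in R 4.3.3 on the deposited log2 CPM (lmFit with cell line and vector, eBayes with trend), with Benjamini-Hochberg adjustment over all genes, a threshold of 0.05 and, where stated, a fold change of 1.5. Per-line effects and their difference came from a fit of 4 group means, where the difference between the lines is not part of the residual spread. No filter on low values was added. Exchanging vector labels within lines gives 36 arrangements and no exact two-sided p below 0.0556, so no exact test is given for single genes. The scripts were tested on simulated data. A log2 fold change on log2(CPM + prior) understates changes of low genes, and counting error is largest for genes with few reads.

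Gene lists (34, with 685 of 759 members in the table) and the genes described were chosen with earlier results of these data known, and are described by counts and medians without set tests. Named genes are HOTAIR, NDRG1, GNG2, ENPP2 and PPFIA4, up to 15 genes in each direction with an adjusted p under 0.05 over both lines and no overlap in either, and in each list the 4 members with the smallest shared p and the 2 with the largest interaction t. Other genes named were chosen after their values were seen, and 1 gene the rule named is not reported here. Positions, length and GC content came from GENCODE on GRCh37 (13226 genes matched, 96%), and promoters from RefSeq (GRCh38.p14), whose coordinates are not those of hg19. Alternatives were other designs (4 group means, replicate number within each line as a block), median centring, quantile normalization, GC and length correction, and pseudocounts of 1 and 0.1 CPM. Further ones were a mean CPM of at least 2, no trend, library weights, limma-voom on recovered reads, thinned reads and each library left out. Chosen after seeing the data were list counts without members the study names, counts without overlap with a library left out, and all alternatives for the difference between lines. Figures were drawn with matplotlib 3.10.9 in Python 3.11.15.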

Additional observations from a re-analysis of the deposited data

Results flagged for a closer look

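The effect of HOTAIR differed between the lines by the interaction test for 4 genes of the lists and of the text. Each value is the DCIS.COM log2 fold change minus the MCF10A one. HOTAIR itself gave -1.87 ± 0.18 (SE; adjusted p = 0.021, limma, with 2.4e-05 to 0.38 over the alternatives), with 7.28 in MCF10A and 5.41 in DCIS.COM. TRIM22, an interferon-stimulated antiviral gene, gave 1.37 ± 0.12 (adjusted p = 0.021, with 4.6e-05 to 0.38 over the alternatives), at 86.6 and 86.8 against 79.7 and 76.4 CPM in MCF10A, and 2.79 and 3.06 against 6.865 and 6.97 CPM in DCIS.COM, empty vector against HOTAIR. COL17A1, a collagen of hemidesmosomes, gave 0.92 ± 0.089 (adjusted p = 0.021, with 6.9e-05 to 0.38), at 1917 and 2021 against 1981 and 2034 CPM in MCF10A, and 66.35 and 63.2 against 126.5 and 123 CPM in DCIS.COM. SAA2, an acute phase gene, gave 1.24 ± 0.13 (adjusted p = 0.039, with 9.7e-05 to 0.44), at 84.9 and 85.9 against 89.7 and 88.9 CPM in MCF10A, and 0.865 and 0.9700 against 2.36 and 2.38 CPM in DCIS.COM, and it shares reads with its near-identical neighbour SAA1, so that its share of them is uncertain. For TRIM22, COL17A1 and SAA2 the shared log2 fold changes of 0.54, 0.49 and 0.69 average over lines that differed by this test. With the replicate number as a block, or with any one of the MCF10A libraries left out, the interaction test called 0 genes at an adjusted p under 0.05.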

How the results depend on the processing

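HOTAIR and NDRG1 kept an adjusted p under 0.05 and their direction under every alternative run, although NDRG1 fell just short of a fold change of 1.5 with length correction. No result tested changed its direction past the threshold. PLAT and the counts of calls did not hold throughout. Over both lines the number of genes called with a fold change of 1.5 was 5 with 4 group means, 1 with length correction, 12 with library weights, 1 at a log2 fold change of at least 1.5, and 2 to 7 with a library left out. For single lines it was 3 in MCF10A and 12 in DCIS.COM. At any fold the count of 3 became 12 with 4 group means, 8 with GC correction and 41 with library weights, and 2 to 26 with a library left out, with the 26 reached without DCIS.COM pCDH-empty 1 and 6 without DCIS.COM pCDH-empty 2. The 6 genes that differed between the lines became 0 without the trend, 23 with GC correction, 10 with a pseudocount of 1 CPM and 42 with library weights, and 0 to 4414 with a library left out, the highest without DCIS.COM pCDH-empty 2, where DCIS.COM pCDH-empty 1 stands alone for its group and is assumed to vary like the other groups. Genes on the same side without overlap in both lines numbered 2007 to 3073 with a library left out, when a group of 1 library separates more easily. Glycolysis members without overlap in both lines numbered 6 to 16, with 16 without DCIS.COM pCDH-empty 1.

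With the replicate number within each line as a block, 2 genes passed the threshold over both lines and PLAT did not (adjusted p = 0.18, limma). With that block 0 genes differed between the lines, or 32 with the block and GC correction together. Libraries of the same number did not deviate together across genes (correlations of 0.066 in MCF10A and -0.0089 in DCIS.COM). With 2 libraries per group these values cannot settle whether the numbers pair the samples, and the labels do not say. The cause of these shifts was not tested. Depth limits ENPP2, LPAR1, GNG2 in DCIS.COM and NDRG2 in MCF10A, which rest on few reads.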

Other observations

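Integrins and epithelial junction genes, 2 lists of cell attachment, were mixed between the lines. Among integrins, 9 of 19 members had means on opposite sides (all genes, 50.6%), 4 were higher without overlap in both lines (all genes, 6.09%) and 3 had an unadjusted p under 0.05 in the higher direction (all genes, 5.53%). ITGA5, the alpha chain of the fibronectin receptor, measured 359 and 379 against 502 and 523 CPM in MCF10A, and 27.8 and 22.6 against 29.15 and 28.7 CPM in DCIS.COM, empty vector against HOTAIR, with a shared log2 fold change of 0.34 ± 0.08 (adjusted p = 0.36, limma). It is also one of the HIF targets counted above, and its DCIS.COM value was 0.21 with DCIS.COM pCDH-empty 1 and 0.35 without it. Of the mesenchymal genes counted above, TGFBI, a secreted matrix protein, measured 979.8 and 1126 against 1346 and 1548 CPM in MCF10A, and 15.6 and 13.6 against 20.1 and 19.97 CPM in DCIS.COM, with 0.46 ± 0.07 (adjusted p = 0.14) and equal values in the lines (0.46 and 0.46). The DCIS.COM value was 0.56 without DCIS.COM pCDH-empty 1, so the equal values rest on that library. SNAI2, a repressor of epithelial genes, gave 0.35 ± 0.086, with 0.32 in MCF10A and 0.38 in DCIS.COM. Epithelial junction genes had means on opposite sides for 16 of 31 members (all genes, 50.6%), with 6 of 31 members lower without overlap in both lines (all genes, 6.08%), among them ESRP2, a splicing regulator of epithelial cells (-0.17 ± 0.048), and LLGL2, a polarity protein (-0.16 ± 0.052), and 7 on opposite sides without overlap (all genes, 11%). The DCIS.COM value of LLGL2 was -0.14 with DCIS.COM pCDH-empty 1 and -0.051 without it.

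Outside the lists, the genes with the smallest p in the shared fit, named here after their values were seen, included IGFBP3 and IGFBP6, which bind insulin-like growth factors. IGFBP3 had a shared log2 fold change of 0.34 ± 0.045 (adjusted p = 0.12, with 0.004 to 0.59 over the alternatives), and IGFBP6 0.49 ± 0.074 (adjusted p = 0.14). MIR205HG, the host transcript of a microRNA of basal epithelium, gave 0.59 ± 0.086 (adjusted p = 0.14). None of these passed the threshold in the fit over both lines, while IGFBP3 passed with 4 group means, with GC correction and with library weights, IGFBP6 with 4 group means and library weights, MIR205HG with library weights, and all 3 without DCIS.COM pCDH-empty 1.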
